A study of Mus musculus with 4 samples.

Results

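The laminin chains and nidogen-1 form a set of 9 genes, chosen by symbol from the 52535 gene models counted in each library: the alpha chain genes Lama2, Lama3, Lama4 and Lama5, the beta chain genes Lamb1, Lamb2 and Lamb3, the gamma chain gene Lamc1, and Nid1. All 9 were found and all 9 passed the filter on low counts. They were measured by RNA sequencing of pancreatic samples labelled as ducts, from C57BL/6 mice. Wild-type mice gave 2 libraries (WT 1 and WT 2). The other 2 libraries (KO 1 and KO 2) are labelled Lats1/2 KO, with the genotype Lats1fl/fl; Lats2fl/fl; Sox9-CreER, in which Cre can be activated in cells that express Sox9. The labels give no age, no time after Cre activation and no statement that replicates came from separate mice, so p-values measure only the spread between these samples, which may be technical.

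A laminin is a cross-shaped heterotrimer of 1 alpha, 1 beta and 1 gamma chain that assembles inside the cell and polymerises outside it as the sheet on which a basement membrane is built. Cells hold the sheet through integrins and dystroglycan. Nidogen-1 binds the gamma1 chain and collagen IV and so ties the laminin and collagen networks together. In the pancreas, basement membranes surround ducts, acini, vessels, nerves and islets. Trimers are named by their chain numbers: laminin-511 holds alpha5, beta1 and gamma1, and laminin-332, the epithelial laminin bound at hemidesmosomes, includes the Lama3 and Lamb3 products.

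The targeted genes do not check the labels here. Lats1 measured 50.8 (WT 1), 65.6 (WT 2), 70.0 (KO 1) and 79.2 CPM (KO 2), where CPM is the count scaled to library size with TMM factors. For Lats2 the values were 114, 102, 163 and 121 CPM in the same order. Both targeted genes were thus no lower under the knockout label, and neither passed the test (edgeR adjusted p = 0.172 and 0.127). The counts are given per gene model and could include transcripts that lose only the floxed exons, which was not tested. The groups are therefore named by their labels. Library totals were 3566387 to 4735183 counts in wild type and 5082636 to 5925601 in the libraries labelled knockout.

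Of the 9 genes, 8 rose in the libraries labelled knockout and 0 fell. The genome-wide background was high: 42.2% of the 13990 tested genes changed at an adjusted p under 0.05 (edgeR's quasi-likelihood F test, adjusted by Benjamini-Hochberg), 22.0% higher and 20.2% lower. The median log2 change of the 9 genes was 1.63, with a range of 0.30 to 2.86, against -0.01 over all tested genes. Every KO library stood above every WT library for 9 of the 9 genes, as it did for 37.4% of all tested genes. In bulk RNA, more cells of a type and more RNA per cell cannot be told apart, and this holds for each rise given here. Upper quartile scaling moved the median of all tested genes from -0.01 to -0.20. Under upper quartile scaling the 9 log2 changes ran from 0.11 (Lamb2) to 2.67 (Lamb1), with 8 genes higher. Lama2, Lama3 and Nid1 share 631, 197 and 143 bases of exon with antisense models, and since the use of strand in counting is not given, reads there cannot be told apart.

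**Figure D1:**
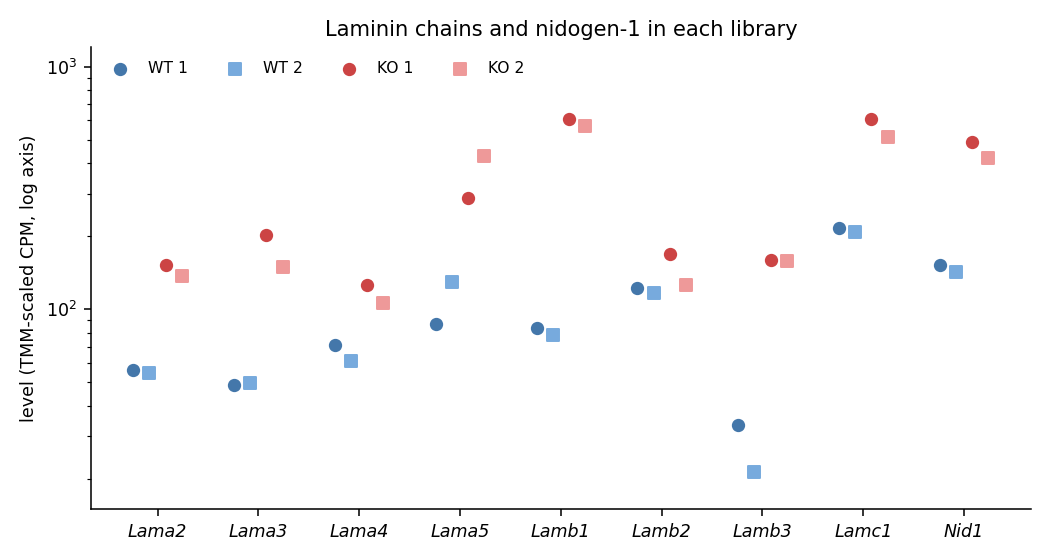
Level of each gene in each library, in TMM-scaled CPM on a log axis; blue points are the 2 wild-type libraries and red points the 2 libraries labelled knockout. The red points lie above the blue points for every gene; the gap is widest for Lamb1 (81.0 against 589 CPM on average) and narrowest for Lamb2 (119 against 147 CPM).

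The beta chains carried both the largest and the smallest change of the set. Lamb1 encodes the beta1 chain, the beta chain of laminin-511 and laminin-411, and lies on chromosome 12 (mm10, 31265234 to 31329644). WT 1 and WT 2 had 83.8 and 78.2 CPM, and KO 1 and KO 2 had 608 and 571 CPM. The groups were far apart and the replicates close: Lamb1 rose 7.27-fold, a log2 change of 2.86 ± 0.16 SE (edgeR adjusted p = 1.55e-05). That change was above those of 97.6% of all tested genes.

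Lamb3 encodes the beta3 chain, which is found in laminin-332, and its model lies on chromosome 1 (193207699 to 193343878). Its levels were 33.5 and 21.4 CPM in wild type and 160 and 158 CPM in the libraries labelled knockout. WT 1 was the higher of the wild-type libraries, and both remained far below KO 1 and KO 2. Lamb3 rose 5.82-fold, from 27.4 ± 8.61 to 159 ± 1.81 CPM (SD, n = 2; log2 change 2.54 ± 0.23 SE, edgeR adjusted p = 8.39e-05). The Lamb3 model spans the Hsd11b1 and G0s2 models on the opposite strand, with 0 bases of shared exon. In WT 1, WT 2, KO 1 and KO 2, Hsd11b1 had 123, 145, 129 and 120 unscaled counts and G0s2 had 72, 57, 21 and 26. In the same order Lamb3 had 122, 95, 797 and 975 unscaled counts. Whether these models share reads was not tested, since how reads in overlapping models were assigned is not given.

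Lamb2 encodes the beta2 chain, known from kidney glomeruli and the neuromuscular junction, and has the shortest model of the set (chromosome 9, 108479736 to 108490530). It measured 122 and 117 CPM in wild type and 169 and 126 CPM in the libraries labelled knockout. Only KO 1 stood well above the wild-type values, with KO 2 close to them. The log2 difference was 0.30 ± 0.18 SE and did not pass (edgeR adjusted p = 0.216). Without KO 1 it was 0.08 and without KO 2 it was 0.53 (edgeR adjusted p = 0.752 and 0.053).

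The make-up of the beta chain transcripts differed between the groups. It was compared within each library on a per-length scale (CPM per kilobase of merged exons), so that scaling between libraries does not enter. Lamb2 was the leading beta chain in wild type, at 59.7% and 63.3% of the summed beta level in WT 1 and WT 2, and took 24.5% and 20.3% in KO 1 and KO 2. Lamb1 took 25.2% and 26.0% in wild type and 54.1% and 56.3% in the libraries labelled knockout. Lamb3 took 15.1% and 10.7%, then 21.4% and 23.4%. The groups did not overlap for any of the 3 shares, but an exact permutation test of 2 against 2 libraries cannot pass 0.05, so no p is given. In reads alone, Lamb1 made up 35.1% of 870 beta chain reads in WT 1 (95% Wilson interval 32.0 to 38.3), 36.2% of 962 in WT 2 (33.2 to 39.3), 64.9% of 4656 in KO 1 (63.5 to 66.2) and 66.8% of 5278 in KO 2 (65.5 to 68.0). These intervals cover counting error only. The ratio of Lamb1 to Lamb2 per length went from 0.422 and 0.411 to 2.21 and 2.78.

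**Figure D2:**
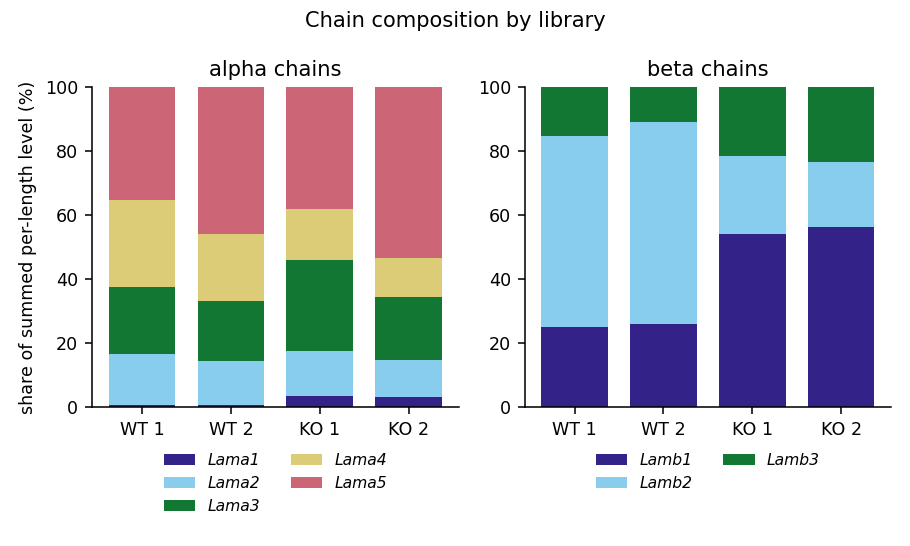
Share of each chain in the summed per-length level (CPM per kilobase of exon) of its class, as stacked bars from 0 to 100%, in the 2 wild-type libraries and the 2 libraries labelled knockout. In the beta panel Lamb2 leads in wild type (59.7% and 63.3%) and Lamb1 in the libraries labelled knockout (54.1% and 56.3%); the alpha panel shows Lama4 taking less and no clear shift for Lama5.

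The sequence upstream of the start site is shown for the 3 beta chain genes, whose changes differed most, and for Nid1, whose window held a TEAD motif. TEAD factors bind DNA for YAP and TAZ, the co-activators that Lats1 and Lats2 restrain, and AP-1 is named with YAP in the study's title. Windows of 250 bases before a start site came from RefSeq (GRCm38.p6) and covered 6 of the 9 genes, the other members not being searched. They were searched on both strands for GGAATG (TEAD) and for TGANTCA (AP-1), motifs that do not overlap each other. Each run ends before the first base of an annotated exon of its gene, and capitals mark a motif match. In order, the runs are chr12:31265043-31265233 (Lamb1, plus strand), chr9:108479612-108479735 (Lamb2, plus strand), chr1:193301744-193301992 (Lamb3, plus strand) and chr13:13437352-13437550 (Nid1, plus strand).
Lamb1: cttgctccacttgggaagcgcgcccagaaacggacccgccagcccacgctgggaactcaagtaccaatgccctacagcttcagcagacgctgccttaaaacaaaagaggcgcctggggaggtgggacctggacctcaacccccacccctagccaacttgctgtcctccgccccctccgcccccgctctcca
Lamb2: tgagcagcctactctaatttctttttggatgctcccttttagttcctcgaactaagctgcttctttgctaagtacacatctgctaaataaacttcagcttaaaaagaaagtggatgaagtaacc
Lamb3: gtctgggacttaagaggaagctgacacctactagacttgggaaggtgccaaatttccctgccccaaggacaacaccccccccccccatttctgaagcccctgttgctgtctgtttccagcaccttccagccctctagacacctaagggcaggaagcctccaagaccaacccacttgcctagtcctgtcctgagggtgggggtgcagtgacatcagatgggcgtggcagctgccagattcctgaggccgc
Nid1: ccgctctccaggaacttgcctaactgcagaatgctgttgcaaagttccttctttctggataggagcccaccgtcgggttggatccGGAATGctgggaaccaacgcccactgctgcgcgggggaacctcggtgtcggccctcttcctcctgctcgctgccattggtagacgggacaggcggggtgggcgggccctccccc
GGAATG was found 165 bases before the RefSeq start site of Nid1, whose window ends at 13437601. The Nid1 model begins earlier, at 13437551, so the printed run stops short of that site. GGAATG was also found, in its reverse form, in a second Lamb3 window. That Lamb3 window belongs to a later start site and begins in an annotated exon, so it is not printed. The windows of Lama2, Lama5, Lamb1 and Lamb2 and the Lamb3 window above held no match. Over all 32851 windows of this length, 12.6% held GGAATG and 6.75% held TGANTCA. Of the members' windows that were searched, 0 held TGANTCA. A match is a description of these letters only, and no binding was measured.

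All 4 alpha chains rose, by 1.75-fold to 3.58-fold. Lama3 encodes the alpha3 chain of laminin-332 (chromosome 18, 12333819 to 12583013). Wild-type levels were 48.6 and 49.7 CPM, and KO 1 and KO 2 had 203 and 150 CPM. KO 1 was the higher of the knockout-labelled pair and both were well above wild type. Lama3 rose 3.58-fold (log2 change 1.84 ± 0.20 SE, edgeR adjusted p = 0.000185). Gene counts do not separate its long and short transcript forms.

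Lama5 encodes the alpha5 chain, the main alpha chain of mature epithelial basement membranes (chromosome 2, 180176373 to 180225859). Its values were 87.4 and 129 CPM in wild type and 288 and 430 CPM in the libraries labelled knockout. Replicates of Lama5 spread more than those of any other alpha chain, relative to their mean, but the groups stayed apart. Lama5 rose 3.32-fold (log2 change 1.73 ± 0.26 SE, edgeR adjusted p = 0.00185).

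Lama2 and Lama4 encode alpha chains of non-epithelial basement membranes: alpha2 is known from muscle and peripheral nerve, alpha4 from blood vessels. Lama2 (chromosome 10, 26980036 to 27619758) was at 56.3 and 54.8 CPM in wild type, and KO 1 and KO 2 had 152 and 137 CPM. It rose 2.60-fold, with replicates close in both groups (log2 change 1.38 ± 0.16 SE, edgeR adjusted p = 0.000328). Lama4 (chromosome 10, 38965515 to 39110188) was at 71.2 and 61.1 CPM against 126 and 106 CPM. Its rise of 1.75-fold was the smallest that passed (log2 change 0.81 ± 0.18 SE, edgeR adjusted p = 0.00712), and leaving out WT 2 ended its call (0.71, edgeR adjusted p = 0.0534).

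Within the alpha class, Lama4 took a smaller share and the other member chains showed no separation. Per length, Lama4 took 27.2% and 20.7% of the summed alpha level in wild type and 15.8% and 12.3% in the libraries labelled knockout. For Lama5 the shares were 35.3% and 46.0% against 38.2% and 53.2%, and for Lama3 20.8% and 18.9% against 28.6% and 19.6%. Lama2 stood at 15.9% and 13.7% against 14.1% and 11.8%. The groups of Lama5, Lama3 and Lama2 overlapped. The leading alpha chain in WT 1 depended on the length used: with coding length in place of merged exons, Lama4 (40.9%) rather than Lama5 (24.5%) led there. In WT 2 the coding-length shares of Lama4 and Lama5 were near each other at 33.2% and 34.1%.

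Lamc1 and Nid1 rose by similar factors from high starting levels. Lamc1 encodes gamma1, the gamma chain of most laminins (chromosome 1, 153218922 to 153332786), and stood at 216 and 208 CPM in wild type and 610 and 514 CPM in the libraries labelled knockout. It rose 2.65-fold (log2 change 1.41 ± 0.17 SE, edgeR adjusted p = 0.000326). Nid1 (chromosome 13, 13437551 to 13512269) stood at 152 and 143 CPM and at 488 and 422 CPM. With no overlap between the groups, Nid1 rose 3.08-fold (log2 change 1.63 ± 0.16 SE, edgeR adjusted p = 0.000137). The per-length ratio of Nid1 to Lamc1 was 0.840 and 0.818 in wild type and 0.953 and 0.979 in the libraries labelled knockout.

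On the per-length scale Lamb1 and Lamb3 moved up the order of mean levels, and Lamb2 and Lama4 moved down. In wild type, Lamc1 was highest at 25.6 ± 0.674 CPM per kilobase, then Nid1 at 21.3 ± 0.948 and Lamb2 at 19.6 ± 0.592 (SD, n = 2). The replicates of these 3 genes did not overlap. Lama5 (9.48 ± 2.56) and Lamb1 (8.17 ± 0.400) followed with overlapping replicates, then Lama4 (5.48 ± 0.589), Lama3 (4.57 ± 0.0677), Lamb3 (4.15 ± 1.30) and Lama2 (3.40 ± 0.0648), where the range of Lamb3 reached those of its neighbours. In the libraries labelled knockout Lamc1 (68.0 ± 8.24), Nid1 (65.6 ± 6.69) and Lamb1 (59.4 ± 2.66) came first and overlapped as neighbours. Lama5 (31.5 ± 8.87), Lamb2 (24.2 ± 4.97) and Lamb3 (24.1 ± 0.274) formed a middle tier whose neighbours also overlapped. Lama3 (16.4 ± 3.51) stood below that tier, and Lama4 (9.60 ± 1.17) and Lama2 (8.85 ± 0.635) came last and overlapped. Among all tested genes with a known exon length, Lamb1 moved from the 65.6th to the 94.8th percentile of level and Lamb3 from the 44.9th to the 86.3rd, while Lamb2 was at the 85.4th and 86.4th.

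Other genes of the family came from a fixed list. Lama1, an alpha chain known mainly from embryonic basement membranes, had 6 and 8 counts in wild type and 110 and 131 in KO 1 and KO 2, a rise of 12.4-fold (edgeR adjusted p = 0.000124) to a level that was still the lowest of the alpha chains at 21.7 ± 0.659 CPM. Nid2, the second nidogen, rose 3.28-fold (12.4 ± 3.85 to 40.5 ± 7.86 CPM, edgeR adjusted p = 0.0018). It shares 437 bases of exon with the protein-coding Rtraf on the opposite strand, where reads cannot be told apart. Lamc3, a gamma chain of low level here, stood at 11.1 ± 4.02 and 12.2 ± 3.52 CPM and did not pass (edgeR adjusted p = 0.819); it shares 382 bases of exon with an antisense model.

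With Lama1 included, the summed per-length level of alpha chains was 23.1 ± 1.98 in wild type and 68.6 ± 3.49 CPM per kilobase in the libraries labelled knockout, 2.97-fold higher. The beta sum was 3.37-fold higher, from 31.9 ± 2.29 to 108 ± 7.90 CPM per kilobase. Beta chains together were above alpha chains in all 4 libraries, with a ratio of 1.54 and 1.24 in wild type and 1.71 and 1.44 in the libraries labelled knockout, so the groups overlapped. Among the 3 chains of laminin-511, Lama5 had the lowest level in WT 1, KO 1 and KO 2 and Lamb1 in WT 2. The per-length ratio of Lamb3 to Lama3 was 1.12 and 0.699 in wild type and 1.28 and 1.71 in the libraries labelled knockout. For Nid1 the shares of the nidogen level overlapped, at 88.2% and 91.7% against 88.8% and 90.0%.

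**Figure D3:**
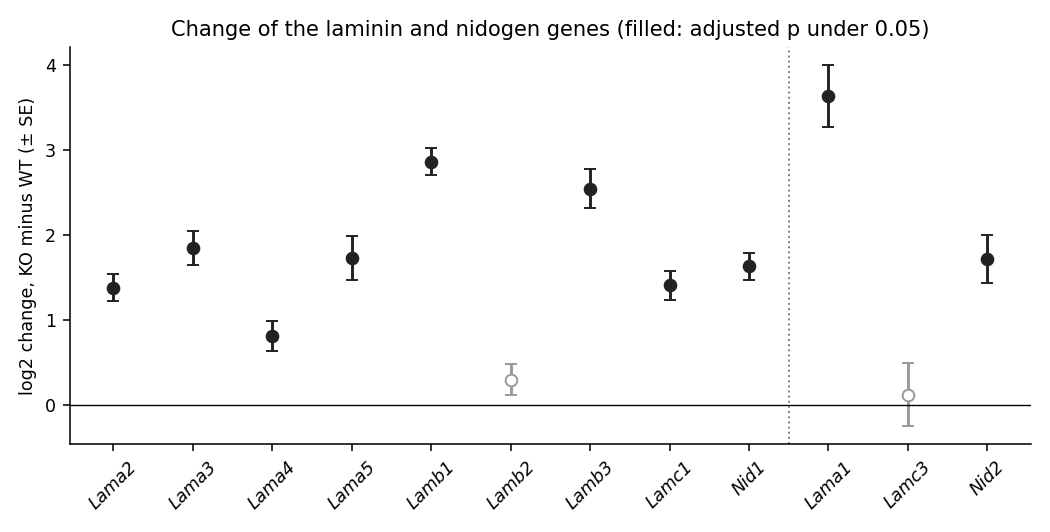
Log2 change of each gene, libraries labelled knockout minus wild type, with its standard error from the edgeR fit over 4 libraries; filled points passed an adjusted p of 0.05, and the dotted line separates the 9 members from Lama1, Lamc3 and Nid2. All points lie above 0, from 0.12 (Lamc3) to 3.63 (Lama1); the open points, Lamb2 and Lamc3, did not pass, and Lamc3 falls to -0.07 with upper quartile scaling.

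Genes for partner proteins of the basement membrane rose in the same libraries. Of 24 listed genes, 23 were tested, 17 rose and 1 fell, with a median log2 change of 2.02 against -0.01 over all tested genes. Among all tested genes 22.0% rose and 20.2% fell. The collagen IV chains Col4a4 and Col4a3 had the largest rises, 11.3-fold (3.85 ± 1.55 to 44.6 ± 4.42 CPM) and 11.1-fold (4.37 ± 1.13 to 49.3 ± 2.59 CPM; edgeR adjusted p = 7.82e-05 and 4.53e-05). Fras1, of the complex that anchors embryonic epithelium, fell 3.14-fold (7.92 ± 0.0730 to 2.50 ± 0.124 CPM, edgeR adjusted p = 0.0132). The call on Fras1 was lost when KO 1 or KO 2 was left out (log2 change -1.60 and -1.67, edgeR adjusted p = 0.0816 and 0.0751).

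Genes for laminin receptors also rose: 7 of 9 were higher and 1 lower, with a median log2 change of 1.86. The shares over all tested genes were 22.0% higher and 20.2% lower. Integrin alpha3 (Itga3), which binds laminin-332 and laminin-511, rose 7.65-fold from 79.9 ± 27.1 to 612 ± 64.5 CPM, and integrin beta4 (Itgb4), the hemidesmosome integrin, 5.91-fold from 62.4 ± 5.0 to 369 ± 69.0 CPM (edgeR adjusted p = 8.16e-05 and 3.98e-05). Integrin beta1 (Itgb1), the partner of Itga3, rose 4.19-fold, Itga2 5.09-fold and Itga6, which pairs with either beta chain, 2.13-fold. Dystroglycan (Dag1) rose 3.62-fold, from 128 ± 3.31 to 464 ± 8.49 CPM, and Bcam, a receptor for alpha5, 1.86-fold. Itga7, the muscle laminin integrin, stood at 16.7 ± 1.83 and 23.8 ± 1.18 CPM and did not pass (edgeR adjusted p = 0.122). Rpsa, listed as a laminin receptor and also a ribosomal protein, fell 1.88-fold (edgeR adjusted p = 0.007). The call on Rpsa was lost when WT 1 or WT 2 was left out (log2 change -0.92 and -0.89, edgeR adjusted p = 0.118 and 0.0947).

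Genes that act on the cell side of these receptors were mixed, where 22.0% of all tested genes rose and 20.2% fell. Of 4 hemidesmosome anchors, 2 rose and 1 fell: the tetraspanin Cd151 rose 2.35-fold and plectin (Plec) 1.66-fold, while Col17a1, at 3.62 ± 1.24 and 0.525 ± 0.173 CPM and so about at the level of 3 counts in the latter group, fell (log2 change -2.71 ± 0.66 SE, edgeR adjusted p = 0.0113). Plec lost its call when WT 1 (0.67, edgeR adjusted p = 0.211) or WT 2 (0.82, edgeR adjusted p = 0.113) was left out, and with upper quartile scaling (0.54, edgeR adjusted p = 0.0628). Col17a1 lost it when WT 2, KO 1 or KO 2 was left out (-2.30, -2.44 and -3.06, edgeR adjusted p = 0.122, 0.117 and 0.0841).

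Among 13 genes for the sugar chain on dystroglycan that binds laminin, 2 rose, 1 fell and 10 did not pass, with a median log2 change of 0.16. Tmem5 (now Rxylt1), a xylosyltransferase, rose 2.40-fold, while Pomgnt2 fell 3.27-fold. Pomgnt2 lost its call when WT 2, KO 1 or KO 2 was left out (-1.60, -1.65 and -1.72, edgeR adjusted p = 0.0559, 0.0717 and 0.0668). Of 10 genes of the dystrophin complex, which joins dystroglycan to actin, 1 rose, 1 fell and 8 did not pass, with a median log2 change of -0.26. Neither list's counts exceeded the shares over all tested genes (22.0% higher and 20.2% lower). The syntrophin Sntb1 fell 3.77-fold (17.8 ± 1.14 to 4.65 ± 2.59 CPM, edgeR adjusted p = 0.00603).

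Genes for proteases that cut laminin or nidogen were higher, with 7 of 9 tested genes up and 0 down (10 listed, median log2 change 2.57). For comparison, 22.0% of all tested genes were up and 20.2% down. Bmp1, which trims laminin-332 chains, rose 19.3-fold from 21.2 ± 1.95 to 407 ± 4.05 CPM, and Plau, the urokinase that activates plasmin, 18.3-fold from 7.56 ± 3.30 to 141 ± 45.9 CPM (edgeR adjusted p = 1.18e-05 and 0.000244).

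**Figure D4:**
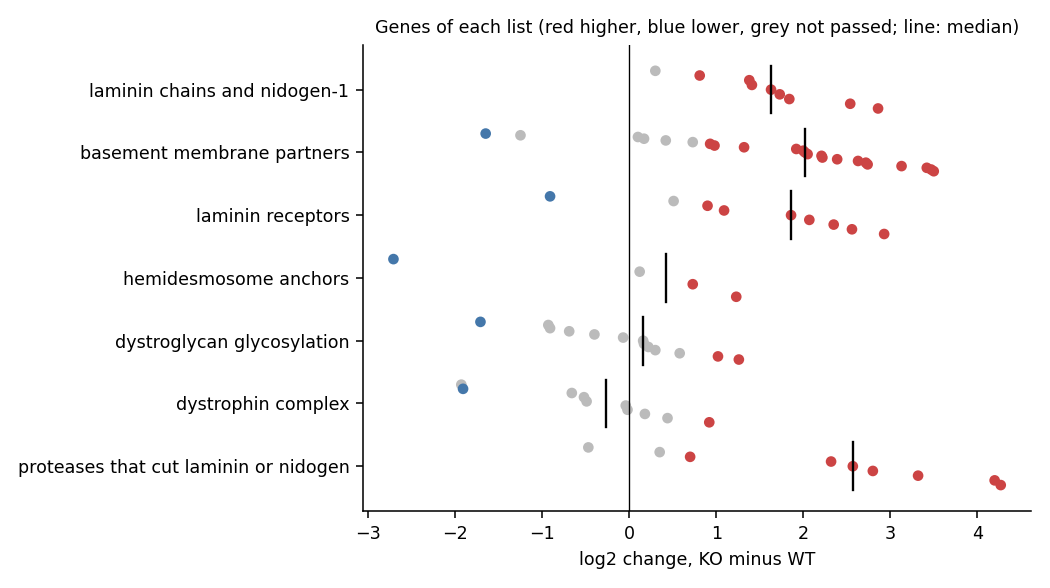
Log2 change of every tested gene, libraries labelled knockout minus wild type, for the 9 members (top row) and 6 fixed lists below; red points rose, blue fell and grey did not pass, and the vertical line is the list's median. Medians of the members (1.63), basement membrane partners (2.02), receptors (1.86) and proteases (2.57) lie to the right of 0, while those of dystroglycan glycosylation (0.16) and the dystrophin complex (-0.26) lie near it.

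All 10 duct markers were detected in every library, which does not by itself check the duct label. Markers of other cell types moved with the groups. Of the 10 duct markers 8 rose, against 22.0% of all tested genes. The duct list summed to 1932 and 2443 CPM in wild type, against 14706 (KO 1) and 14388 CPM (KO 2). Beside the epithelial chains Lama3, Lama5 and Lamb3, which rose 3.32-fold to 5.82-fold, this sum was 6.65-fold higher. RNA of acinar cells was at 37175 and 65189 CPM in wild type and 116 and 2863 CPM in the libraries labelled knockout over 8 markers, with Ptf1a at 0 in KO 1. Of the 7 acinar markers tested, 0 passed. In each wild-type library the acinar sum was above the duct sum, as were the fibroblast and smooth muscle sums given below.

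Cells known for alpha2 and alpha4 laminins differed in both directions. Beside the marker counts below, 22.0% of all tested genes were higher and 20.2% lower. Fibroblast markers summed to 2968 and 2584 CPM in wild type and 14784 and 9298 CPM in the libraries labelled knockout, with 5 of 7 genes higher. The collagens Col1a1, Col1a2 and Col3a1 made up most of that sum and rose 6.71-fold, 5.68-fold and 3.61-fold. Pdgfra and Lum rose 2.21-fold and 2.51-fold, while Dcn and Dpt did not pass (edgeR adjusted p = 0.926 and 0.516). Endothelial markers went from 1942 and 1812 to 1053 and 881 CPM (7 of 11 lower), and smooth muscle and pericyte markers from 5385 and 4480 to 1940 and 1224 CPM (9 of 10 lower, 1 higher). Schwann cell markers stood at 250 and 190 against 93.0 and 95.8 CPM (5 of 7 lower). Lama2 and Lama4 were thus higher where the summed fibroblast markers were higher and the summed endothelial, smooth muscle and Schwann markers lower. Mesothelial markers summed to 16.8 and 11.2 CPM against 319 and 282 CPM (2 of 4 tested genes higher, Upk1b at 0 in WT 2), and macrophage markers to 624 and 589 against 6016 and 4151 CPM (10 of 10 higher). The markers of T and NK cells and of B cells fell, 6 of 6 and 4 of 4. The part of any of these cell types in the laminin and nidogen changes was not tested.

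**Figure D5:**
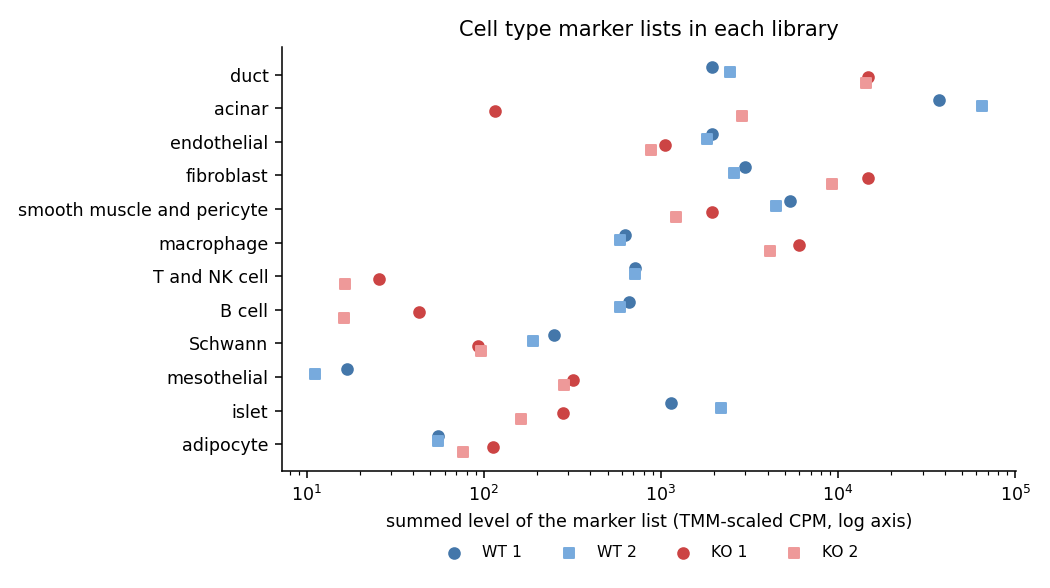
Summed level of each cell type marker list in each library, in TMM-scaled CPM on a log axis; blue points are the wild-type libraries and red points the libraries labelled knockout. Red points lie to the right of blue for duct, fibroblast, macrophage, mesothelial and adipocyte lists and to the left for the other lists; the acinar list runs from 116 CPM in KO 1 to 65189 CPM in WT 2.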

How the data were processed

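Raw read counts per gene model were deposited by the authors, 1 file for each of 4 libraries. Per the submitters' processing notes the build was mm10 and the tools TopHat and edgeR. How reads were counted (program, annotation, strand, shared reads) is not given in the sources used here. A floor of 3 counts corresponded to 0.486 to 0.824 CPM.

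After filterByExpr and TMM scaling, counts were tested in edgeR 4.0.16 under R 4.3.3 (robust glmQLFit, glmQLFTest, genotype as the only term, 2 residual degrees of freedom), with Benjamini-Hochberg adjustment over 13990 genes and a threshold of 0.05. Exon lengths came from GENCODE M21, whose coordinates equalled those of the files for all 9 members. Members and lists were chosen with earlier results of these data known. The text names all members, other family genes and receptors, and for each other list up to 2 rises and 2 falls past the threshold; some genes that this rule takes are not reported here. Alternatives were RLE and upper quartile scaling, other filters, DESeq2 1.42.0, a replicate block and leaving out each library.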

Additional observations from a re-analysis of the deposited data

How the results depend on the processing

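Across 10 alternatives to scaling, filter, tool, design and libraries, 8 members were higher and 0 lower in all but 1, where 7 were higher (without WT 2, which ended the call of Lama4), so the range over left-out libraries was 7 to 8. Lamb2 passed under 0 of the 10, with log2 changes of 0.08 to 0.53. DESeq2 called the same number of members. The labels do not say that replicate numbers pair the libraries, and a correlation of deviations of 0.035 over genes cannot exclude pairing. With the replicate number as a block, 8 members were higher and 0 lower, and 10 listed pathway genes were lower in place of 5. With upper quartile scaling 10 were also lower, and 39.4% rather than 52.1% of all changed genes were higher (2339 higher and 3594 lower). Leaving out 1 library gave 2 to 5 lower pathway genes (3 without KO 1, 2 without KO 2), and 1867 to 2276 lower genes overall. Leaving out a library leaves 1 sample in its group, which is assumed to vary like the other group.

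Chain shares moved with the length used. In reads not divided by length, Lamb1 took 35.6% of the beta class in wild type and 65.8% in the libraries labelled knockout, Lamb2 52.4% and 16.4%, and Lamb3 17.8% in the latter. With coding length, an alternative chosen after seeing the data, Lamb1 took 33.0% and 59.6%, Lamb2 49.6% and 15.1%, Lamb3 17.4% and 25.3%, and Lama5 29.3% of the alpha class in wild type. Lamb2 led in wild type and Lamb1 in the libraries labelled knockout under each length.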
